A study of Ambystoma mexicanum with 8 samples.

Results

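Telethonin, xin (XIRP1) and a small heat shock protein (HSPBB) were followed as 3 assembled transcripts, or contigs, out of 91843 in the axolotl limb transcriptome. They are TR15140|c5_g1_i1 for telethonin, TR4362|c0_g1_i1 for XIRP1 and TR4340|c1_g1_i1 for HSPBB, written below with a space. All 3 passed the filter on low counts that left 32757 contigs for testing. The contigs were picked by name from the study's annotated list of differing transcripts, so the contrast between the groups chose them, and their differences are given below as a description, without a p-value. On the scale of that list, the ratio of the group means of FPKM + 1, they stood at 28.8 for telethonin, 19.1 for XIRP1 and 17.9 for HSPBB, at ranks 4, 10 and 13 of 905 matched contigs.

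The 8 libraries came from limb stumps of wild-type leucistic axolotls, 1 animal per library, and all were taken at 3 days post-amputation. The 4 repeatedly amputated limbs (libraries MR2, MR5, MR6 and MR14) were failed regenerates harvested after their 6th amputation. The 4 control limbs (Control1, Control3, Control4 and Control6) came from previously uninjured siblings, after a first amputation at the same level. Summed counts per library lay between 15596527 and 18437103, and the library numbers pair no animals across the groups.

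Telethonin is a small protein of striated muscle that caps the end of titin, the elastic filament of the sarcomere, where it is anchored in the Z-disc. Xin proteins bind and bundle actin filaments at sites where myofibrils attach to the membrane, and in mice Xin is induced in regenerating skeletal muscle. Small heat shock proteins hold unfolding proteins in a state from which other chaperones can refold or clear them, and several are abundant in muscle. HSPBB takes its name from a zebrafish protein, heat shock protein beta-11.

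Telethonin, at the Z-disc end of titin, stood at 91.3, 325, 2.10 and 179.9 CPM (counts per 1000000 of the TMM-scaled library) in MR2, MR5, MR6 and MR14. In Control1, Control3, Control4 and Control6 it stood at 0.282, 3.68, 9.59 and 0.567 CPM. MR2, MR5 and MR14 lay above every control limb, whereas MR6 lay below Control3 and Control4, so the groups overlapped. The means were 149.7 ± 138 CPM in repeatedly amputated limbs and 3.53 ± 4.32 CPM in control limbs (SD, n = 4 each), a log2 fold change of 5.41 with a standard error of 1.59. Behind the lowest values were few fragments, 35.21 expected counts in MR6 and 5.28 in Control1.

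XIRP1, the actin-binding xin protein, had the highest CPM of the 3 contigs in every library. It was at 265, 1196, 5.86 and 626 CPM in MR2, MR5, MR6 and MR14, and at 0.748, 20.2, 42.8 and 4.10 CPM in Control1, Control3, Control4 and Control6. Again MR6 lay within the control range and the other repeatedly amputated limbs lay above it. Means were 523 ± 516 CPM in repeatedly amputated limbs and 16.96 ± 19.2 CPM in control limbs (SD, n = 4 each), with a log2 fold change of 4.95 (SE 1.66).

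HSPBB, the small heat shock protein, was at 68.1, 421, 3.35 and 271 CPM in MR2, MR5, MR6 and MR14. Control1, Control3, Control4 and Control6 held 0.374, 9.71, 25.9 and 1.67 CPM. The groups overlapped through MR6 once more. The means of 191 ± 191 CPM in repeatedly amputated limbs and 9.40 ± 11.7 CPM in control limbs (SD, n = 4 each) gave a log2 fold change of 4.34 (SE 1.62).

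**Figure D1:**
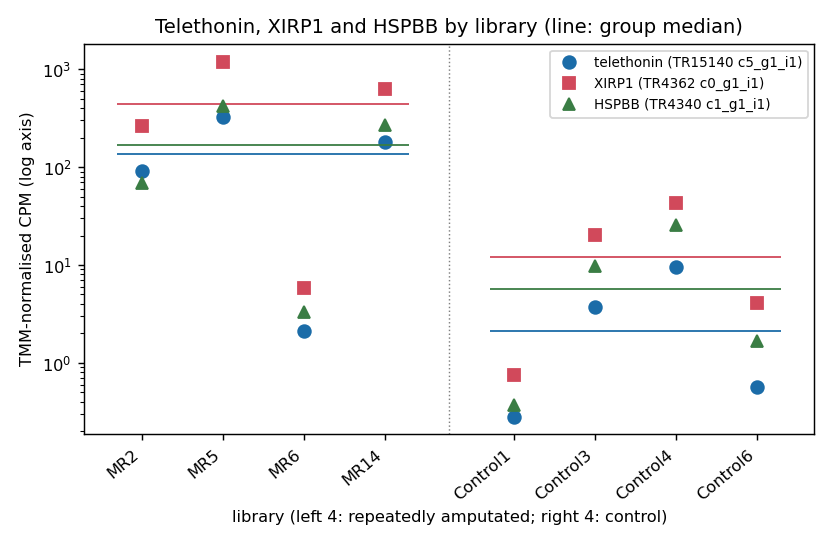
TMM-normalised CPM (log axis) of telethonin, XIRP1 and HSPBB in each library, with the 4 repeatedly amputated limbs on the left and the 4 control limbs on the right, and lines at the group medians. In all 3 contigs MR6 lies under Control3 and Control4, while MR2, MR5 and MR14 lie over all controls.

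With an FDR limit of 0.05, the quasi-likelihood test of edgeR called 0 of the 3, against 0.0122% of all tested contigs (0.00611% with the higher level after repeated amputation). Taking unadjusted p under 0.05, it passed 3 of 3, against 11.1% (6.47% higher). The exact test of edgeR called 1 of the 3, against 1.14% (0.855% higher), and the Wald test of DESeq2 called 2, against 2.32% (1.73% higher). A higher fitted level in repeatedly amputated limbs was found in 3 of 3 and in 49.2% of all tested contigs, and 0.174% of these had a log2 fold change at least that of HSPBB. As the same contrast chose the contigs, nothing is read from these counts. The groups overlapped in 3 of 3, and 6.36% of all tested contigs had no overlap (3.29% higher and 3.07% lower in repeatedly amputated limbs, and 6.61% in either direction in FPKM). MR2, MR5 and MR14 all lay above every control limb in 3 of 3, against 5.17% of all tested contigs. MR6 was left out of this count after its values were seen, and the contrast chose the contigs. Nothing is read from this count either. The size of the difference rested on single libraries at both ends. Without Control4, the control limb highest in all 3, the log2 fold changes were 6.63 for telethonin, 5.98 for XIRP1 and 5.61 for HSPBB, and without MR5, the highest repeatedly amputated limb, they were 4.70, 4.15 and 3.61. Without MR6 they were 5.82, 5.36 and 4.76.

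Per length of transcript the order of the 3 contigs was another. In FPKM (fragments per kilobase of transcript per 1000000 fragments, scaled by TMM), HSPBB averaged 203 ± 198 in repeatedly amputated limbs and 10.4 ± 12.8 in control limbs (SD, n = 4 each). Telethonin averaged 94.4 ± 83.6 and XIRP1 51.2 ± 48.7 FPKM in repeatedly amputated limbs, against 2.31 ± 2.78 and 1.73 ± 1.93 FPKM in control limbs (SD, n = 4 each). HSPBB was the highest of the 3 in FPKM in all 8 libraries, while telethonin and XIRP1 did not keep 1 order. In MR5, HSPBB was at rank 252, telethonin at rank 443 and XIRP1 at rank 720 of the 32757 tested contigs by FPKM. In Control1 the same contigs were at ranks 31507, 31984 and 32118, near the bottom.

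All 3 contigs ranked the 8 libraries the same way, MR5 > MR14 > MR2 > Control4 > Control3 > MR6 > Control6 > Control1. This order was found in 10 tested contigs (0.0305%), these 3 included. The others were the unnamed TR15140 c16_g1_i1, 2 contigs named for NRAP (TR16437 c0_g1_i1 and TR16437 c1_g1_i1), the unnamed TR16437 c1_g2_i1, SRCH (TR30172 c0_g1_i1) and 2 unnamed contigs, TR2987 c3_g1_i1 and TR5555 c14_g1_i1. NRAP anchors actin filaments at myotendinous junctions and takes part in myofibril assembly, and SRCH is a calcium-binding protein of the sarcoplasmic reticulum. A second telethonin contig, TR15140 c5_g2_i1, had MR6 above Control3 (13.8 and 12.0 CPM) and was otherwise in the same order. Counting divided fragments among such contigs, as described below. The place of telethonin in the shared order carries the uncertainty of that division.

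The spread within a group was large. Within repeatedly amputated limbs the highest library was 155 times the lowest for telethonin, 204 times for XIRP1 and 126 times for HSPBB, and within control limbs 34.0, 57.2 and 69.2 times. On log2 CPM the within-group SD of telethonin was 3.24 in repeatedly amputated limbs and 2.14 in control limbs, against medians over all tested contigs of 0.34 and 0.30. Deviations from the group means were used to find contigs with a like pattern (Pearson r of log2 CPM over 8 libraries, a description). Telethonin was closest to TR15140 c16_g1_i1 (r = 0.999), NRAP (TR16437 c1_g1_i1, r = 0.993), XIRP1 (r = 0.990), TR16437 c1_g2_i1 (r = 0.988) and TR15140 c17_g1_i1 (r = 0.985). For XIRP1 the closest was HSPBB (r = 0.992), followed by TR15140 c16_g1_i1 (r = 0.992), telethonin, NRAP (TR16437 c1_g1_i1, r = 0.990) and the unnamed TR16626 c2_g1_i1 (r = 0.986). HSPBB was closest to XIRP1, to NRAP (TR16437 c1_g1_i1, r = 0.992) and to TR5555 c14_g1_i1 (r = 0.989), followed by TR16437 c1_g2_i1 (r = 0.988) and TR15140 c16_g1_i1 (r = 0.987).

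The assembly placed telethonin in component TR15140, a group of 32 contigs by the names the assembler gave them. Besides TR15140 c5_g1_i1, a second contig, TR15140 c5_g2_i1, carries the name telethonin, and 30 have no protein name. The second telethonin contig was at 116, 514, 13.8 and 450.2 CPM in MR2, MR5, MR6 and MR14, and at 0.669, 12.0, 47.3 and 1.99 CPM in Control1, Control3, Control4 and Control6. Here MR6 lay above Control3 and below Control4. Its log2 fold change was 4.14 (SE 1.53), and as it stands in the same annotated list, this too is a description.

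RSEM divided fragments among the c5 contigs of this component. The expected counts of TR15140 c5_g1_i1 were fractional, but summed over the 3 c5 contigs they were whole in 8 of 8 libraries, within 0.011 of a count. The sum, which does not depend on the division, was 3415, 13206, 268 and 9739 counts in MR2, MR5, MR6 and MR14, and in the control libraries 18 (Control1), 296 (Control3), 989 (Control4) and 43 (Control6). In CPM it averaged 423 ± 378 in repeatedly amputated limbs and 19.1 ± 26.2 in control limbs (SD, n = 4 each), a log2 fold change of 4.47 (SE 1.56). On this sum MR6, at 16.02 CPM, was next to Control3, at 15.7 CPM, and the groups still overlapped. The contig TR15140 c5_g1_i1 took 43.9%, 38.8%, 13.1% and 28.6% of the sum in MR2, MR5, MR6 and MR14, against 29.3%, 23.4%, 16.8% and 22.2% in Control1, Control3, Control4 and Control6. The level of this single contig carries the uncertainty of that division.

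Of the 30 unnamed contigs of the component, 20 were tested. The unnamed TR15140 c16_g1_i1 followed telethonin closely, at 80.5, 336, 2.51 and 183 CPM in MR2, MR5, MR6 and MR14 and 0.374, 4.61, 9.58 and 0.833 CPM in Control1, Control3, Control4 and Control6. Its count divided by that of telethonin stayed between 0.882 and 1.19 in repeatedly amputated limbs and between 0.999 and 1.47 in control limbs. In Control1, with the fewest fragments of both contigs, the 95% counting interval (exact Clopper-Pearson) of this ratio ran from 0.382 to 5.59. TR15140 c17_g1_i1 behaved alike, at 16.5, 59.2, 0.478 and 31.4 CPM in MR2, MR5, MR6 and MR14 and at 0.107, 0.583, 1.67 and 0.0595 CPM in Control1, Control3, Control4 and Control6. Their log2 fold changes were 5.29 (SE 1.53) for TR15140 c16_g1_i1 and 5.46 (SE 1.44) for TR15140 c17_g1_i1. TR15140 c19_g1_i1 had 109, 478, 2 and 230 counts in MR2, MR5, MR6 and MR14, against 0, 7, 8 and 1 in Control1, Control3, Control4 and Control6. TR15140 c25_g1_i1 had 33, 153, 3 and 80 counts in MR2, MR5, MR6 and MR14, against 0, 2, 6 and 1 in Control1, Control3, Control4 and Control6. Neither passed the filter. These 4 contigs are in the annotated list, and the contrast chose them as well.

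The contigs differed in effective length, which enters FPKM. Judged by counts per unit of FPKM, the effective length of TR15140 c16_g1_i1 was 0.899 times that of telethonin, and that of TR15140 c17_g1_i1 was 0.0899 times. TR15140 c17_g1_i1 accordingly had 1.94 to 2.49 times the FPKM of telethonin in repeatedly amputated limbs and 0.175 to 0.227 times its counts.

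The other 26 unnamed contigs of TR15140, which the annotated list does not hold, had another pattern, with r to telethonin from -0.549 to 0.302 in the 18 that were tested. Of these 18, 14 had a higher and 4 a lower fitted level in repeatedly amputated limbs. The quasi-likelihood test of edgeR called 0 of the 18 (FDR from 0.786 to 0.995), against 0.0122% of all tested contigs, and 0 had an unadjusted p under 0.05 (11.1%). With edgeR's exact test 0 of the 18 were called (1.14%), and with DESeq2 0 (2.32%). The study's list left these 18 contigs out on the same contrast, so nothing is read from the absence of calls. Their median log2 fold change was 0.09, against -0.0065 over all tested contigs, with a range from -0.33 to 0.96. The most abundant, TR15140 c15_g1_i2, was at 83.4 ± 2.69 CPM in repeatedly amputated limbs and 80.8 ± 3.67 CPM in control limbs (SD, n = 4 each), a log2 fold change of 0.05 (SE 0.07, FDR = 0.884). TR15140 c15_g1_i3 was at 39.0 ± 1.25 CPM and TR15140 c15_g1_i1 at 20.1 ± 2.94 CPM in repeatedly amputated limbs, against 37.3 ± 3.89 CPM and 18.9 ± 1.66 CPM in control limbs (SD, n = 4 each). Summed over this set, libraries of repeatedly amputated limbs held 185 to 205 CPM and those of control limbs 179 to 198 CPM. When all 32 contigs were added to telethonin, its log2 fold change was 1.96.

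**Figure D2:**
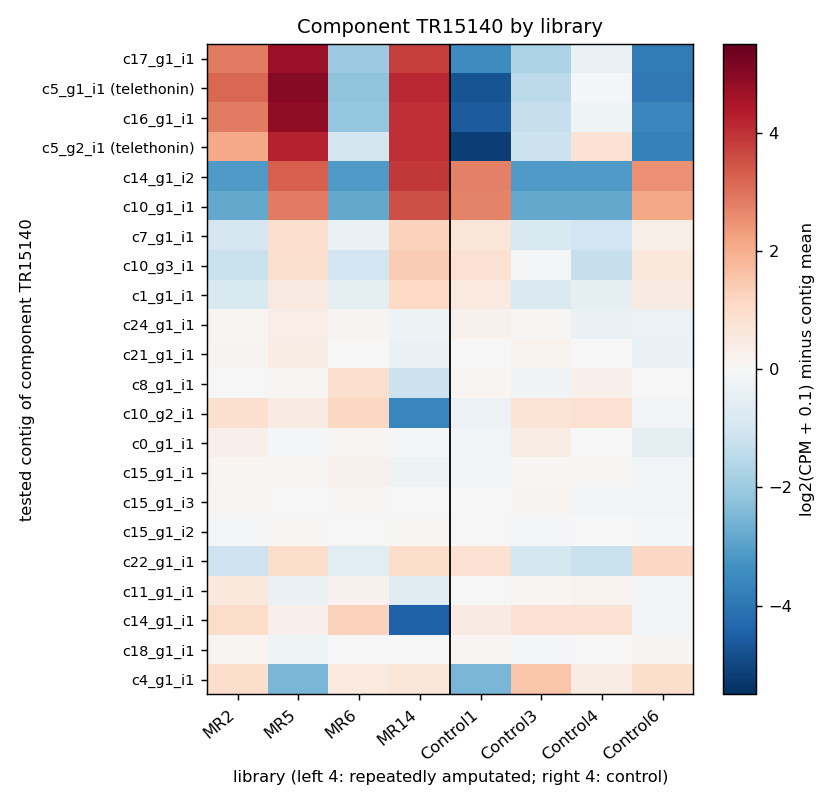
Each row is a tested contig of component TR15140 and each column a library, the 4 repeatedly amputated limbs left of the line and the 4 control limbs right of it, and colour gives log2(CPM + 0.1) minus the mean of the contig. The top 4 rows, both telethonin contigs with c16_g1_i1 and c17_g1_i1, share 1 pattern, while the c15 contigs are flat and c14_g1_i2 and c10_g1_i1 are high in MR5, MR14, Control1 and Control6.

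Components TR4362 and TR4340 were small. A second XIRP1 contig, TR4362 c1_g1_i1, had 43, 110, 1 and 45 counts in MR2, MR5, MR6 and MR14 and in Control1, Control3, Control4 and Control6 it had 0, 1, 5 and 0 counts. With so few counts in MR6 and the control libraries, it did not pass the filter. Beside HSPBB, component TR4340 held 4 unnamed contigs, none above 2.80 CPM in any library. Another contig with a telethonin name, TR20012 c22_g1_i1, reached 5.34 CPM in MR5 and 5.24 CPM in MR14 and was at 0 CPM in MR6, Control1, Control3 and Control6.

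Within a library, the 3 contigs did not keep exact proportions. Each telethonin count came with 2.91, 3.68, 2.78 and 3.48 counts of XIRP1 in MR2, MR5, MR6 and MR14, and with 2.65, 5.49, 4.46 and 7.23 in Control1, Control3, Control4 and Control6. For Control3 the 95% counting interval was 4.26 to 7.24 and for MR5 3.56 to 3.79, so these 2 intervals did not overlap. But TR15140 c5_g1_i1 took 38.8% of the c5 sum in MR5 and 23.4% in Control3. The part of RSEM's division in this difference in proportion was not tested. Against the c5 sum, XIRP1 had 18823 counts to 13206 in MR5 and 381 to 296 in Control3. On that sum MR5, not Control3, had the higher proportion, and no counting interval was computed for it. HSPBB gave 0.746, 1.29, 1.59 and 1.505 counts per telethonin count in MR2, MR5, MR6 and MR14, and 1.33, 2.64, 2.70 and 2.94 in Control1, Control3, Control4 and Control6. By the counts of this single telethonin contig, Control1, with its wide interval of 0.382 to 5.59, was the only control limb inside the range of the repeatedly amputated limbs. The second telethonin contig gave 1.28, 1.58, 6.57 and 2.50 counts per telethonin count in MR2, MR5, MR6 and MR14, against 2.37, 3.27, 4.93 and 3.51 in Control1, Control3, Control4 and Control6. All these ratios to the single contig depend on RSEM's division, and the intervals leave out its uncertainty. Against the c5 sum of 268 counts in MR6, XIRP1 had 98 counts and HSPBB 56, for each the lowest proportion of any library. Whether the proportions differ between the groups was not tested.

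**Figure D3:**
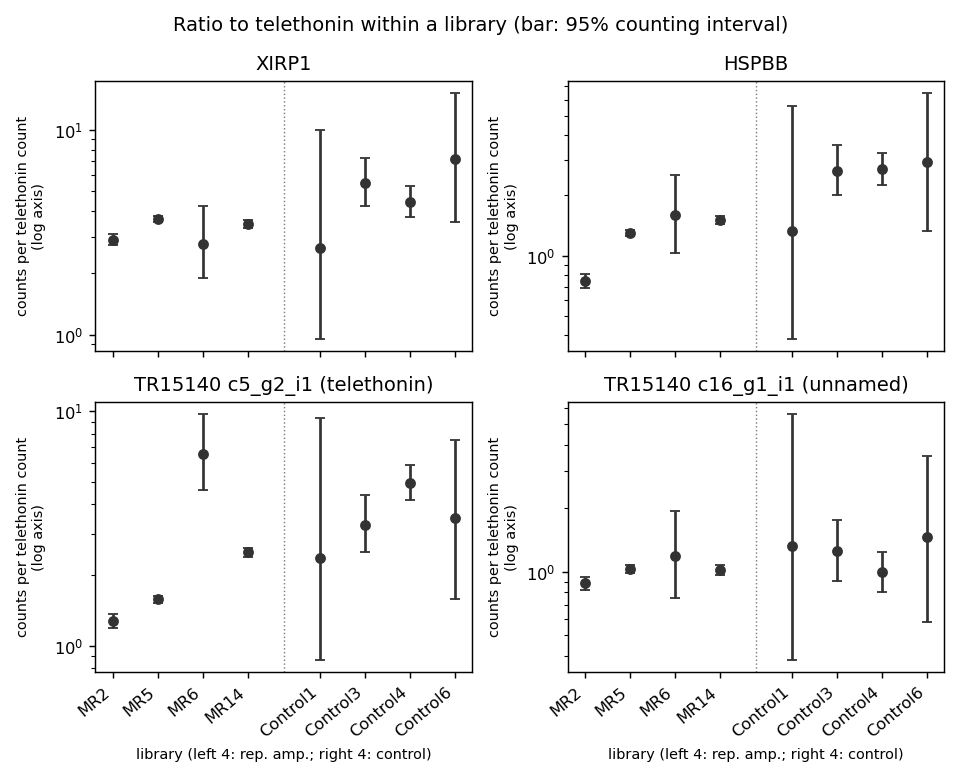
Counts per telethonin count (log axes) of XIRP1, HSPBB, the second telethonin contig and TR15140 c16_g1_i1 in each library, repeatedly amputated limbs on the left and control limbs on the right, with 95% counting intervals. The ratio of c16_g1_i1 stays between 0.882 and 1.47, and that of the second telethonin contig reaches 6.57 in MR6.

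The members of the contractile filaments, which serve as markers of muscle tissue, shared part of the pattern of the 3 contigs. Their 67 listed contigs, among them myosin heavy chains, troponins, tropomyosins, titin and nebulin, summed to 1875, 10187, 449 and 7195 CPM in MR2, MR5, MR6 and MR14. They summed to 64.8, 187, 939 and 68.1 CPM in Control1, Control3, Control4 and Control6. Of 34 tested, 34 had a higher fitted level in repeatedly amputated limbs, with a median log2 fold change of 4.21, but the list was drawn from the same contrast. Within both groups, 14 of the 34 ranked the libraries as the 3 contigs did, against 0.427% of all tested contigs. The order of all 8 libraries was shared by 0 of the 34. Whether limbs differed in their share of muscle fibres or in transcript per fibre cannot be told apart in bulk tissue, and the part of muscle content in the 3 differences was not tested.

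Scaled to 1000 CPM of contractile contigs, telethonin was at 48.7, 31.9, 4.68 and 25.01 in MR2, MR5, MR6 and MR14, and at 4.36, 19.6, 10.2 and 8.33 in Control1, Control3, Control4 and Control6. XIRP1 was at 142, 117, 13.0 and 87.0 in MR2, MR5, MR6 and MR14, and at 11.5, 108, 45.6 and 60.3 in Control1, Control3, Control4 and Control6. HSPBB was at 36.3, 41.3, 7.45 and 37.6 in MR2, MR5, MR6 and MR14, and at 5.77, 51.8, 27.5 and 24.5 in Control1, Control3, Control4 and Control6. On this scale the groups overlapped for all 3, and MR6 and Control1 had the lowest values of all 3 contigs. MR2, MR5 and MR14 lay above all control limbs in 25 of the 34 tested contractile contigs, against 5.17% of all tested contigs. In the Z-disc list they did so in 19 of the 19 tested. With MR6 included, the groups did not overlap in 2 of the 34 and 4 of the 19, against 3.29% of all tested contigs. Both lists came from the same contrast, so nothing is read from these counts. Below Control4, MR6 lay in 3 of the 3 contigs, 30 of the 34 contractile and 14 of the 19 Z-disc contigs, against 16179 of all tested. MR6 was below Control3 in 3 of the 3 contigs and in 0 of the 34 tested contractile contigs, as against 16153 of all 32757 tested. Among the Z-disc proteins it was below Control3 in 5 of 19, which besides telethonin and XIRP1 were both NRAP contigs (TR16437 c0_g1_i1 and TR16437 c1_g1_i1) and a filamin C contig (TR15147 c1_g1_i1), and among chaperones in 1 of 10, HSPBB itself. For telethonin the place of MR6 differed with the contigs counted, and the part of RSEM's division in this was not tested. MR6 was above Control3 in the sum of the c5 contigs (16.02 and 15.7 CPM) and in the second telethonin contig (13.8 and 12.0 CPM). Among the unnamed listed contigs of TR15140, MR6 was below Control3 in c16_g1_i1 (2.51 and 4.61 CPM) and c17_g1_i1 (0.478 and 0.583 CPM). It was also below in c19_g1_i1 (2 and 7 counts) but above in c25_g1_i1 (3 and 2 counts). MR6, Control3 and Control4 were singled out after their values were seen.

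**Figure D4:**
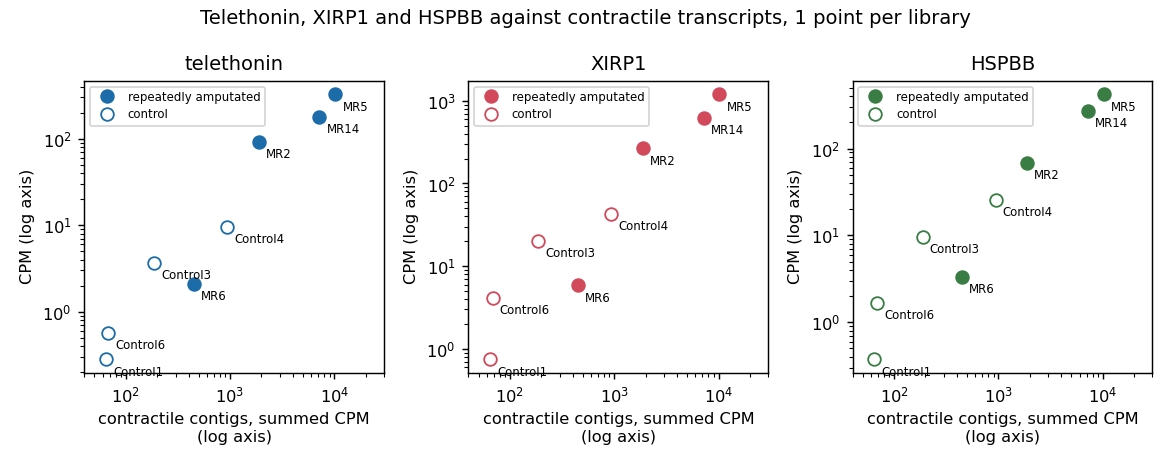
CPM of telethonin, XIRP1 and HSPBB against the summed CPM of 67 contractile contigs (log axes), 1 point per library, filled for repeatedly amputated and open for control limbs. MR6 has more contractile CPM than Control3 (449 and 187) but less of each of the 3 contigs. Summed over the c5 contigs, telethonin is at 16.02 CPM in MR6 and 15.7 CPM in Control3.

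Other proteins of the Z-disc and its neighbourhood had like values. The list of 27 contigs, the 3 telethonin and 2 XIRP1 contigs included, had 19 tested, of which 19 were higher in the fit, with a median log2 fold change of 4.13 against -0.0065 over all tested contigs. The quasi-likelihood test called 0 of these at the FDR limit of 0.05, while 19 had an unadjusted p under 0.05 (11.1% of all tested contigs), the exact test called 6 (1.14%) and DESeq2 called 11 (2.32%). All came from the annotated list, so the direction, these calls and the count without overlap that follows are not independent. The groups did not overlap in 4 of the 19, against 3.29% of all tested contigs higher in repeatedly amputated limbs. These 4 were SYP2L (TR10077 c2_g1_i1), the Z-disc protein myozenin-2 (TR1584 c0_g1_i1), the LIM protein PDLI3 (TR15205 c7_g3_i1) and the actin-binding protein nexilin (TR22384 c0_g1_i3).

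Filamin C (TR15147 c4_g1_i1), which crosslinks actin at the Z-disc and binds xin proteins, averaged 250.4 ± 225 CPM in repeatedly amputated limbs and 20.7 ± 29.5 CPM in control limbs (SD, n = 4 each). Its log2 fold change was 3.596 (SE 1.30). The muscle LIM protein CSRP3 (TR13832 c0_g1_i1), a binding partner of telethonin, averaged 99.5 ± 94.7 CPM and 6.07 ± 8.43 CPM in the same groups (SD, n = 4 each), with a log2 fold change of 4.04 (SE 1.40). In MR6 it was at 5.02 CPM, between Control3 at 3.93 CPM and Control4 at 18.5 CPM. XIRP2, the second xin protein of vertebrates, was spread over 6 contigs of component TR21754. The highest, TR21754 c0_g1_i1, was at 2.86, 12.1, 0.359 and 10.8 CPM in MR2, MR5, MR6 and MR14 and at 0, 0.265, 0.693 and 0 CPM in Control1, Control3, Control4 and Control6.

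Among 12 contigs of chaperones and stress proteins, 10 were tested and 10 had a higher fitted level in repeatedly amputated limbs, with a median log2 fold change of 3.06. The quasi-likelihood test of edgeR called 0 of them at an FDR under 0.05, 10 had an unadjusted p under 0.05 (11.1% of all tested contigs), edgeR's exact test called 5 (1.14%) and DESeq2 called 8 (2.32%). This list too was drawn from the same contrast. GRP75 (TR3001 c1_g2_i1), the HSP70 of mitochondria, was not tested and went the other way, with 0 counts in MR2, MR5, MR6 and MR14, against 30, 5.97, 0 and 14 in Control1, Control3, Control4 and Control6. The groups did not overlap in 4 of the 10, against 3.29% of all tested contigs higher in repeatedly amputated limbs: SMYD1 (TR18870 c0_g2_i1), a methyltransferase of myofibril assembly, and 3 contigs of TERA, the ATPase that extracts proteins for degradation (TR29748 c3_g1_i1, TR29748 c3_g2_i1 and TR29748 c3_g3_i1).

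HSPB7 (TR8209 c0_g1_i1), a small heat shock protein of heart and skeletal muscle, was at 9.85, 46.8, 2.21 and 33.6 CPM in MR2, MR5, MR6 and MR14 and at 0.107, 1.49, 3.46 and 0.238 CPM in Control1, Control3, Control4 and Control6. As with HSPBB, MR6 was under Control4, but unlike HSPBB it was above Control3. HSPB2 (TR645 c1_g1_i1), another muscle member of the family, did not exceed 1.08 CPM in any library. UN45B (TR15651 c0_g1_i1), a chaperone that folds myosin heads, was at 3.47, 26.2, 1.55 and 17.3 CPM in MR2, MR5, MR6 and MR14 and at 0.107, 0.371, 2.83 and 0.178 CPM in Control1, Control3, Control4 and Control6.

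BAG3, FKBP5 and HSP70, chaperones with a use beyond muscle, did not share the order of libraries of HSPBB. BAG3 (TR18166 c0_g1_i1), which joins small heat shock proteins to HSP70, was at 23.9, 80.3, 51.0 and 54.2 CPM in MR2, MR5, MR6 and MR14 and at 11.0, 27.1, 17.1 and 17.1 CPM in Control1, Control3, Control4 and Control6. FKBP5 (TR18692 c2_g1_i1), a co-chaperone of HSP90 that glucocorticoids induce, was at 7.71, 25.6, 53.0 and 59.1 CPM in MR2, MR5, MR6 and MR14 and at 4.596, 10.8, 5.78 and 7.26 CPM in Control1, Control3, Control4 and Control6. In both, MR6 lay above all control limbs and MR2 did not, the reverse of HSPBB. The TERA contigs, where the groups did not overlap, had both MR2 and MR6 above all control limbs. HSP70 (TR5653 c2_g1_i1) was at 23.9, 132, 42.6 and 191.6 CPM in MR2, MR5, MR6 and MR14 and at 32.8, 27.5, 20.4 and 14.2 CPM in Control1, Control3, Control4 and Control6. Without HSPBB, the list summed to 154 CPM in MR6, above the highest control limb at 68.8 CPM. Whether HSPBB differs from these chaperones in its response to repeated amputation was not tested.

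**Figure D5:**
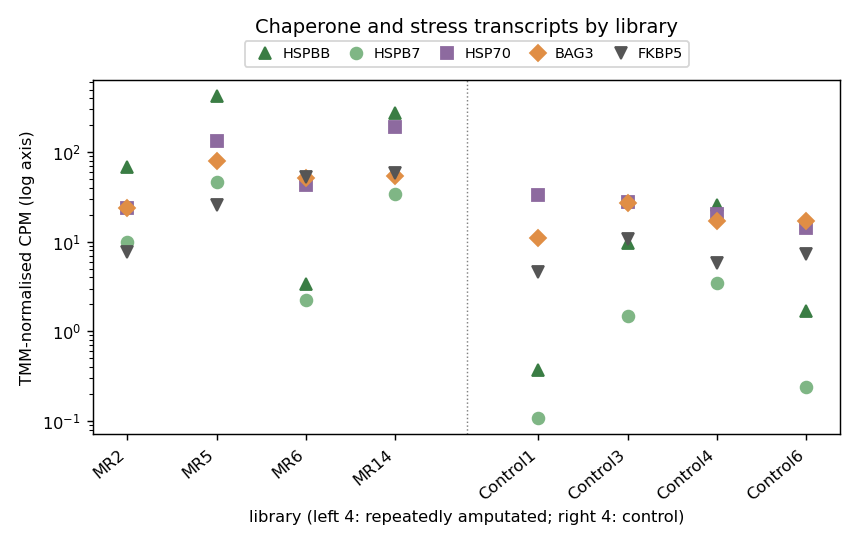
TMM-normalised CPM (log axis) of HSPBB, HSPB7, HSP70, BAG3 and FKBP5 by library, the 4 repeatedly amputated limbs on the left and the 4 control limbs on the right. In MR6, HSPBB is at 3.35 CPM and HSPB7 at 2.21 CPM, while BAG3, FKBP5 and HSP70 lie between 42.6 and 53.0 CPM.

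A list of myogenic and neuromuscular genes held 8 contigs, named for myogenin, acetylcholine receptor subunits, nestin and desmin. Of these, 6 were tested and 6 had a higher fitted level, against 49.2% of all tested contigs, with a median log2 fold change of 3.499. All 8 came from the annotated list, so this direction is not independent either. Desmin (TR26609 c2_g1_i1), the intermediate filament that ties Z-discs together, was at 142, 818, 61.5 and 556 CPM in MR2, MR5, MR6 and MR14 and at 3.63, 18.0, 93.4 and 1.23 CPM in Control1, Control3, Control4 and Control6. Nestin (TR20618 c0_g1_i1), an intermediate filament of immature muscle and other progenitors, was at 70.5, 293, 98.4 and 149.7 CPM in MR2, MR5, MR6 and MR14 and at 47.7, 36.8, 71.5 and 25.1 CPM in Control1, Control3, Control4 and Control6. Markers of other tissues did not share the full pattern of the 3 contigs. Of 3 tested cartilage contigs, 3 had a higher fitted level, with a median log2 fold change of 6.18, but this list too came from the same contrast. The groups did not overlap in 3 of 3, against 3.29% of all tested contigs higher in repeatedly amputated limbs. Among repeatedly amputated limbs the cartilage sum was highest in MR5 and lowest in MR6, as in the 3 contigs. The 10 cartilage contigs summed to 20.7, 187, 11.8 and 19.1 CPM in MR2, MR5, MR6 and MR14 and to between 1.37 and 2.30 CPM in control limbs, and the 11 epidermal and mucous cell contigs to between 186 and 571 CPM in repeatedly amputated limbs and between 948 and 4030 CPM in control limbs. The epidermal list did not move as 1: of 6 tested contigs, 3 had a higher and 3 a lower fitted level. In control limbs its sum was carried by the keratins K2C6A (TR19344 c0_g1_i1, log2 fold change -4.17) and K2C5 (TR25248 c0_g1_i1, -3.20). K2C5 ran from 52.8 CPM in Control4 to 3076 CPM in Control3, and Control4 lay below all repeatedly amputated limbs. TGM1 (TR4696 c0_g1_i1), a transglutaminase of the epidermal envelope, averaged 117.9 CPM in repeatedly amputated limbs and 28.7 CPM in control limbs (log2 fold change 2.04). In MR6, TGM1 was at 271 CPM, above K2C5 at 141 CPM and K2C6A at 96.4 CPM. The part of these tissues in the differences of telethonin, XIRP1 and HSPBB was not tested.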

How the data were processed

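RNA from 8 limb stumps was sequenced as paired-end reads, assembled de novo with Trinity and annotated with Trinotate by the authors, who counted fragments per contig with RSEM (CASAVA 1.8.2 is also named per the labels). The authors deposited RSEM expected counts without normalization, of which 91.49% are whole numbers, and FPKM values scaled between libraries by TMM. No genome was used, so contigs have no positions here, and contig or protein sequences were not used here. The columns name a group but no animal.

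Expected counts were rounded, filtered by filterByExpr, scaled by TMM and tested with edgeR 4.0.16 (quasi-likelihood F-test, robust, Benjamini-Hochberg FDR over all 32757 contigs, R 4.3.3). The standard error is the log2 fold change over the square root of F. CPM and ratios used unrounded counts. Counting intervals are exact 95% Clopper-Pearson intervals and cover counting error only. With 4 libraries per group, p-values weigh a difference between the groups against the spread between these animals. Names came from the study's list of differing transcripts by matching its group means of FPKM to the deposited values within 1e-06 (905 of 912 entries matched 1 contig). Contigs named in the text are telethonin, XIRP1 and HSPBB, the contigs of their components, those with a telethonin, xin or HSPB name, the most abundant of each list and those of like pattern. Others, such as those without overlap, FKBP5, UN45B, GRP75 and SRCH, were singled out once their values were known. The contigs and gene lists were chosen with earlier results of these data known. Alternatives were DESeq2 1.42.0 (size factors and Wald test), upper-quartile scaling, TMM without 102 muscle contigs, other filters, edgeR's exact test, limma 3.58.1 on log2(FPKM + 1) and log2(FPKM + 0.1), counts per assembled gene or component, and each library left out. The tests were checked on simulated data, limma on log2 CPM only. The deposited files hold no fold changes or p-values of the authors.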

Additional observations from a re-analysis of the deposited data

Results flagged for a closer look

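Within a group, 4 values stood far from the other 3 by Dixon's criterion, out of 74 groups of 4 values examined. Chance alone flags about 1 in 20 groups of independent, normally distributed values. The values here were not shown to be normal, and the groups share libraries, so that rate need not hold. The summed contractile contigs were at 939 CPM in Control4, against 64.8 to 187 CPM in the other control limbs. The summed cartilage contigs were at 187 CPM in MR5, against 11.8 to 20.7 CPM in the other repeatedly amputated limbs. The summed epidermal and mucous cell contigs were at 4030 CPM in Control3, against 948 to 1430 CPM in the other control limbs. HSPBB per 1000 CPM of contractile contigs was at 7.45 in MR6, against 36.3 to 41.3 in the other repeatedly amputated limbs.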

How the results depend on the processing

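Telethonin, XIRP1 and HSPBB kept a positive log2 fold change under every alternative run. The spread between replicates, in log2 units, was 2.998 for XIRP1, 2.851 for HSPBB and 2.748 for telethonin. So wide a limit lets large moves pass, and staying within it is a weak check. For XIRP1 and HSPBB the value moved by less than this spread in all 18 alternatives each. Apart from left-out libraries, the values lay between 3.42 and 4.96 for XIRP1 and between 3.74 and 4.36 for HSPBB. With a library left out they ran from 4.15 to 5.98 and from 3.61 to 5.61, and telethonin from 4.70 to 6.63. Telethonin fell outside that spread only with counts summed over component TR15140, at 1.96. Summed over the c5 contigs alone, a setting added after the data were seen, it was 4.47. Median log2 fold changes with a library left out ran from 3.54 to 5.56 for the Z-disc list, from 2.56 to 3.38 for the chaperone list and from 0.09 to 0.22 for the unnamed contigs of TR15140. The Z-disc median was 2.29 with limma on log2(FPKM + 1), where the pseudocount shrinks low contigs. The number of contigs called over all tested, 4 with edgeR's quasi-likelihood test, was 21 without a filter and 9 where contigs needed 10 summed counts. It was 374 under the exact test of edgeR and 759 under the Wald test of DESeq2. With limma it was 11 at a pseudocount of 1 FPKM and 10 at 0.1 FPKM. It ran from 2 (without MR5) to 14 (without Control1) with a library left out, and the cause was not tested. Contigs without overlap numbered 2083 in CPM and 2165 in FPKM. No paired analysis was possible because the columns carry no number that pairs animals across the groups. Counting error weighs most on the lowest values, as telethonin rests on 5.28 expected counts in Control1. Control1 was the library with the highest summed counts (18437103).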

Other observations

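Some unnamed contigs of component TR15140 split the libraries in a way that crossed the groups. TR15140 c14_g1_i2 had 0, 130.81, 0 and 196 expected counts in MR2, MR5, MR6 and MR14, and 110.44, 0, 0 and 82.13 in Control1, Control3, Control4 and Control6. TR15140 c14_g1_i1, an isoform of the same assembled gene, had 70, 40.19, 85 and 0 expected counts in MR2, MR5, MR6 and MR14, and 53.56, 70, 65 and 30.87 in Control1, Control3, Control4 and Control6. RSEM therefore assigned fragments to the i1 form only in MR2, MR6, Control3 and Control4, to the i2 form only in MR14, and to both in MR5, Control1 and Control6. The fractional values show that fragments were divided between contigs, so 0 expected counts need not mean that a form was absent. The pair TR15140 c10_g1_i1 and TR15140 c10_g2_i1 divided the libraries the same way, with 0, 78.44, 0 and 124 expected counts of TR15140 c10_g1_i1 in MR2, MR5, MR6 and MR14 and 85.68, 0, 0 and 50 in Control1, Control3, Control4 and Control6. TR15140 c10_g2_i1 had 35, 24.56, 43 and 0 expected counts in MR2, MR5, MR6 and MR14 and 16.32, 37, 36 and 17 in Control1, Control3, Control4 and Control6. None of these 4 contigs separated the groups (edgeR's quasi-likelihood test, FDR from 0.910 to 0.995). The study's list had left them out on the same contrast. The pattern was seen in the values first and was not tested.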
